A study of Homo sapiens and Mus musculus with 33 samples.

Results

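The genes of the MHC class I pathway that this account follows are 9 of the 35805 genes of the HCT116 RNA-seq table: HLA-B, HLA-C, HLA-E, HLA-F, B2M, TAP1, TAP2, TAPBP and NLRC5. They were chosen by name, as heavy chains, light chain, peptide transporter, loading factor and transactivator of class I antigen presentation, and all 9 passed the filter on low counts. HCT116 is a line of human colorectal carcinoma cells. Cells of this 1 line, with no gene edited, received either 5 µM MS275, an inhibitor of class I histone deacetylases (HDACs), or the vehicle DMSO, for 18 h. RNA-seq covered 4 libraries per treatment. ChIP-seq of H3K18cr and H3K18ac, the crotonylated and acetylated forms of lysine 18 of histone H3, covered 3 labelled libraries per mark and treatment, with 1 input library per treatment, whereas the methods speak of a pair of replicates for H3K18cr; all 3 were used here. Mouse colon epithelium of untreated male C57BL/6 mice, whose age is not given in the sources used here, gave 3 RNA-seq libraries, 2 H3K18cr libraries with 2 inputs, and 3 libraries of H3K4me3, a mark of active promoters, with 1 input. For the colon ChIP-seq, the methods describe a pool of 3 colons and also call the H3K4me3 libraries biological replicates, and a caption speaks of cells from a pair of mice, so whether these libraries are separate mice is not settled. In colon, 7 mouse genes stood for the pathway (H2-K1, H2-D1, B2m, Tap1, Tap2, Tapbp and Nlrc5), of 25965 in the table.

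MHC class I molecules display peptides from inside the cell to CD8+ T cells. A polymorphic heavy chain, here HLA-B or HLA-C, pairs with the invariant light chain beta-2-microglobulin, the product of B2M. Peptides made by the proteasome are pumped into the endoplasmic reticulum by the transporter TAP, a dimer of TAP1 and TAP2, and tapasin, the product of TAPBP, bridges TAP to empty class I molecules while they load. HLA-E and HLA-F are nonclassical heavy chains. HLA-E presents a narrow set of peptides and is read by natural killer cells through NKG2A. NLRC5 is the transactivator that binds with RFX and other factors to the SXY module of class I promoters, and interferons induce most of these genes. Epithelial cells of the colon carry class I molecules, and tumours often lose them.

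The HCT116 RNA-seq libraries held between 35608533 and 53415604 counts. Of 7 epithelial marker genes, 5 reached a mean of 1 CPM (read counts relative to the library's scaled total) with DMSO, with KRT20 and VIL1 below it. With MS275, 6 reached it, with VIL1 below. The markers summed to between 2700.3 and 3902 CPM with DMSO and between 3387 and 4345 CPM with MS275. Of 7 immune markers, 1 reached 1 CPM in either treatment, and PTPRC, CD3E, CD8A and CD79A were below it. Of 4 stromal and endothelial markers, 2 reached 1 CPM (COL3A1 and PECAM1 did not), with a sum of 6.65 to 13.2 CPM with DMSO and 12.3 to 20.8 CPM with MS275, whose part in the changes given here was not tested. Libraries numbered 3 had the lowest scaling factors of both treatments, 0.887 with DMSO and 0.881 with MS275, against 0.998 to 1.06 in the others.

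In the human genome 7 of the 9 members lie in the MHC region of chromosome 6 (GRCh38, gene models of the deposited table). HLA-F is at chr6:29722775-29738528, HLA-E at chr6:30489406-30494205, HLA-C at chr6:31268749-31357158, HLA-B at chr6:31353872-31357188, TAP2 at chr6:32813767-32838822, TAP1 at chr6:32845209-32853978 and TAPBP at chr6:33299694-33314387, while B2M is at chr15:44711477-44718877 and NLRC5 at chr16:56989485-57083531. The deposited HLA-C model runs across HLA-B, the HLA genes share near-identical exons, PSMB9 overlaps TAP1 and an antisense gene overlaps HLA-F. The methods state that uniquely mapped reads were counted, in a passage that names the mouse genome only, and if this held for HCT116 too, reads that match several HLA genes alike were left out. How reads in overlapping gene models were assigned, and whether the counting used strand, is not given in the sources used here, so the counts of these genes are uncertain to that extent.

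The sequence before the start of 7 of the 9 members was found in the RefSeq promoter table (GRCh38.p14). HLA-E and NLRC5 are named only. The HLA-B, HLA-C and HLA-F sequences are shown because these 3 genes are close relatives whose values are set side by side below, that of B2M because it encodes the light chain of them all, and that of TAPBP because limma called both marks lower over its start. Each is the run of 250 bases before the start, 5′ to 3′ on the gene's strand. Capitals mark every match, on either strand, to 5 motifs. They are GGGANTNCC, an NF-kappaB motif, GAAANNGAA, an interferon response element, and TTCNNNGAA, a STAT motif. The shorter ones are TGACG, the core of a cAMP response element, as in the X2 box of the SXY module, and the CCAAT box spelled on the other strand as ATTGG, as in the Y box of that module.
HLA-B, chr6:31357180-31357429, minus strand: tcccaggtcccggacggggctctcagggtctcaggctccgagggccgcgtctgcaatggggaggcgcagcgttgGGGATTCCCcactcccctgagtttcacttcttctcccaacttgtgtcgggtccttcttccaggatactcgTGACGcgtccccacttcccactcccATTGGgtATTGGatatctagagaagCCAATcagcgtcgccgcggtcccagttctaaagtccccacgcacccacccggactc
HLA-C, chr6:31272093-31272342, minus strand: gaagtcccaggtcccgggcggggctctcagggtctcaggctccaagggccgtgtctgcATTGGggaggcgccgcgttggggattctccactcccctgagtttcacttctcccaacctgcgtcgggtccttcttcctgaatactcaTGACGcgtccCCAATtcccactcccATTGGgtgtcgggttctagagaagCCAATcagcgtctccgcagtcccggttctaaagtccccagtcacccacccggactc
HLA-F, chr6:29723184-29723433, plus strand: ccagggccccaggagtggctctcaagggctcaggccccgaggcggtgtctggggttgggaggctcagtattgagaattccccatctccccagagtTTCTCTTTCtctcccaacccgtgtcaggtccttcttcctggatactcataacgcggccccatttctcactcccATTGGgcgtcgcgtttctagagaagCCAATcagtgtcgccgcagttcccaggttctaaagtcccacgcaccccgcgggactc
B2M, chr15:44711267-44711516, plus strand: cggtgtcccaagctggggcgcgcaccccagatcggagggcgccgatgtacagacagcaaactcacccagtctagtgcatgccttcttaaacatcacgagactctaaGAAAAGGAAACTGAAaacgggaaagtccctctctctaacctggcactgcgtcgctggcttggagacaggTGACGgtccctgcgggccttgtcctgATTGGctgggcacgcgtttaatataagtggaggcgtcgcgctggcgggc
TAPBP, chr6:33314079-33314328, minus strand: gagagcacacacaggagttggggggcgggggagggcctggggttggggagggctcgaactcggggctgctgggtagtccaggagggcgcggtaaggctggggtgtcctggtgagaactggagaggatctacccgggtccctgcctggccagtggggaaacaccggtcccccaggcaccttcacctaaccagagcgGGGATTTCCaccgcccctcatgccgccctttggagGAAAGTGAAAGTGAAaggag

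The HLA promoters resembled each other. Positions were matched over the whole window of 300 bases (250 before and 50 after the start), with gaps allowed. HLA-B matched HLA-C at 89.7% of positions, and HLA-F matched them at 80.0% and 80.3%. Any other pair of the 7 members matched at 46.3% to 54.3%. Gaps raise such shares between any sequences, and pairs of unrelated promoters were not compared, so the lower range does not show shared sequence. TGACG was found in HLA-B, HLA-C, B2M and TAP2, that is in 4 of 7 member windows, against 24.6% of all 35116 promoter windows in the table. ATTGG was in 5 of 7 (34.6% of all promoters), and the HLA windows carried, among others, a pair of such matches at -80 and -56 (HLA-C), -81 and -56 (HLA-B) or -82 and -57 (HLA-F), counted from the start as 0. GAAANNGAA was in 5 of 7 (8.11% of all), namely HLA-F, B2M, TAP1, TAP2 and TAPBP, with the first base of the match at -155 in HLA-F, at -144 in B2M and at -20 in TAPBP. In B2M, TAP1 and TAPBP there were 2 overlapping matches each. Only this spelling was searched, so no match in HLA-B and HLA-C does not mean that they lack an interferon response element. GGGANTNCC was in HLA-B and TAPBP (2 of 7, against 4.35%). TTCNNNGAA was in none of the 7 (0 of 7, against 7.66%), and a second TAP1 window, at an alternative start, held 1. A match is a run of letters and was not tested as a binding site.

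The RNA-seq comparison asked how HDAC inhibition changed expression in these cells. After MS275, the nonclassical heavy chains HLA-F and HLA-E had more RNA in all 4 same-numbered pairs of libraries, tapasin had less in all 4, and the classical heavy chains, the light chain and the transporter did not pass the test. Without the replicate number as a block, edgeR called 0 of the 9 members at an adjusted p under 0.05, where 0.00668% of the 14961 genes tested were called (1 gene, with 987 at an unadjusted p under 0.05). With the block, since same-numbered libraries deviated together, it called 3 of 9 (HLA-F, HLA-E and TAPBP) against a background of 14.4% of all genes. By DESeq2 without the block, 2 of 9 (HLA-F and HLA-E) were called, against 0.936% of all genes. The median log2 change of the 9 was 0.06, beside 0.01 over all genes tested, and 5 of the 9 were above 0. The plot of CPM by library shows these values.

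**Figure D1:**
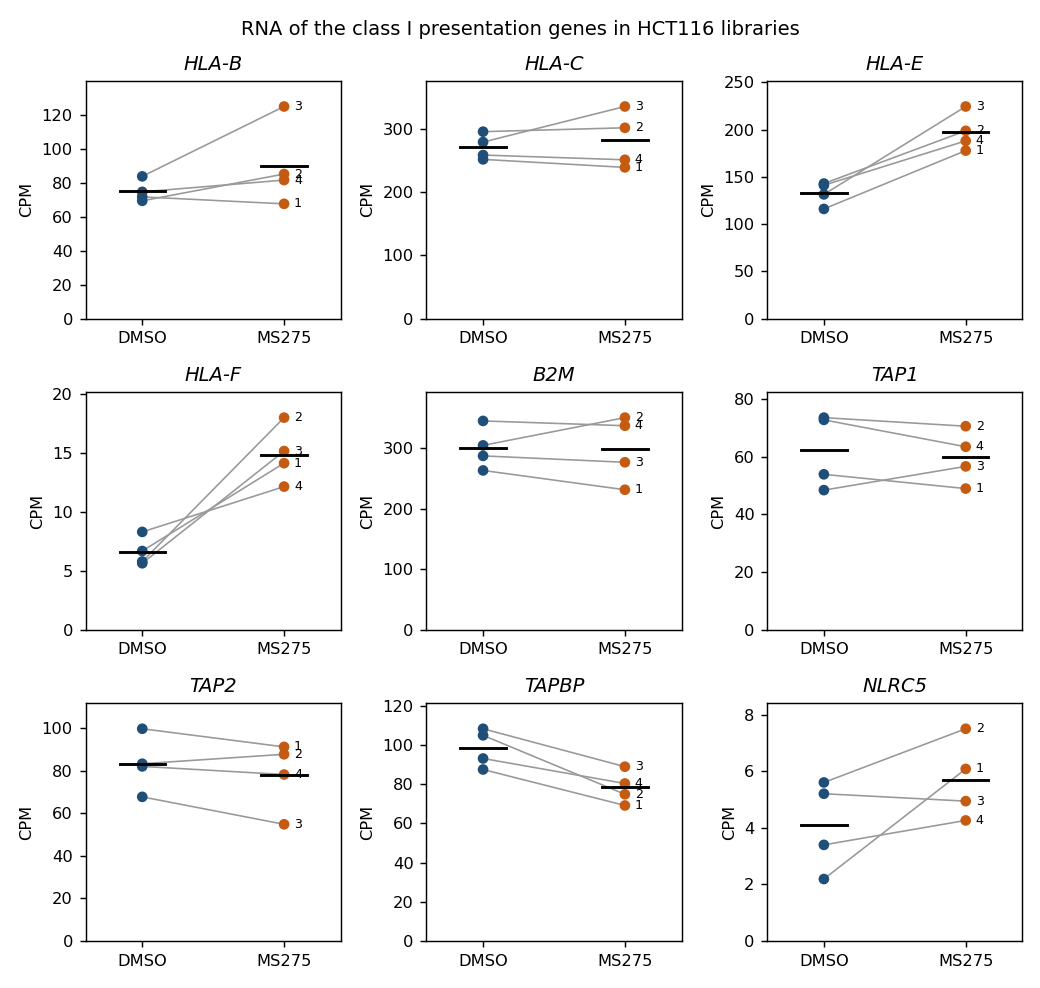
Expression of the 9 members in each HCT116 RNA-seq library, in CPM on a linear axis from 0. Grey lines join libraries with the same replicate number (printed at the right), and black bars are group means of 4. HLA-E and HLA-F are the members whose 4 MS275 libraries all lie above the 4 DMSO libraries, and TAPBP falls along each of its 4 lines.

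HLA-B, a classical heavy chain, had 71.7, 69.4, 83.8 and 74.7 CPM in DMSO libraries 1 to 4 and 67.6, 85.1, 125 and 81.6 CPM in MS275 libraries 1 to 4. The groups overlapped, and the highest value was that of MS275 library 3. Its log2 fold change was 0.26 ± 0.20 (SE) without the block and 0.23 ± 0.10 with it (edgeR adjusted p = 0.909 and 0.151). Without MS275 replicate 3 it was 0.061, and with the block and without replicate 3 it was 0.10. HLA-C, the other classical heavy chain, had 252, 296, 279 and 259 CPM with DMSO and 239, 302, 336 and 251 CPM with MS275. These ranges lay over each other, and the log2 fold change was 0.06 ± 0.16, with an edgeR adjusted p of 0.987 without the block and 0.726 with it.

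HLA-E, which engages inhibitory receptors of natural killer cells, had 116, 143, 131 and 141 CPM with DMSO and 178, 199, 224 and 188 CPM with MS275. All MS275 libraries were above all DMSO libraries. This is a rise to 1.48 times the DMSO mean, with a log2 fold change of 0.57 ± 0.15 without the block (edgeR adjusted p = 0.351) and 0.57 ± 0.074 with it (edgeR adjusted p = 0.000646). HLA-F, a nonclassical heavy chain of low level, had 6.68, 5.78, 5.64 and 8.29 CPM with DMSO and 14.1, 18.0, 15.1 and 12.1 CPM with MS275, which is 2.25 times the DMSO mean. Here too the groups did not overlap, as for 5.37% of all genes tested. Its log2 fold change was 1.16 ± 0.23 without the block (edgeR adjusted p = 0.258) and 1.16 ± 0.20 with it (edgeR adjusted p = 0.0032). With the block, the calls of HLA-E and HLA-F held when any 1 replicate number was left out, with edgeR adjusted p up to 0.0114 and 0.0323. The unadjusted p without the block was 0.00287 for HLA-E and 0.000347 for HLA-F by edgeR, and DESeq2 without the block gave adjusted p-values of 0.0366 and 0.00155.

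B2M encodes the light chain of every class I molecule. It had 263, 304, 287 and 345 CPM with DMSO and 231, 349.9, 276 and 337 CPM with MS275. The means, 299.6 ± 34.4 and 298 ± 55.2 CPM (SD, n = 4 each), differed by less than either spread, with a log2 fold change of -0.0054 ± 0.17 and an edgeR adjusted p of 1.00 without the block (0.902 with it). TAP1, 1 chain of the peptide transporter, had 53.9, 73.6, 48.5 and 72.8 CPM with DMSO and 49.0, 70.6, 56.7 and 63.5 CPM with MS275. TAP2, its partner, had 99.7, 83.3, 67.7 and 82.0 CPM with DMSO and 91.2, 87.7, 54.8 and 78.2 CPM with MS275. In both transporter genes the groups overlapped. The log2 fold change was -0.05 ± 0.20 for TAP1 and -0.09 ± 0.20 for TAP2, and with the block the edgeR adjusted p was 0.808 and 0.448.

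TAPBP encodes tapasin, which holds class I molecules at TAP. Its RNA was at 87.5, 105, 108 and 93.1 CPM with DMSO and at 69.1, 74.8, 88.9 and 80.3 CPM with MS275. MS275 library 3 reached above DMSO library 1, but within each of the 4 numbers the MS275 library was the lower one. The log2 fold change was -0.33 ± 0.16 without the block (edgeR adjusted p = 0.768) and -0.33 ± 0.078 with it (edgeR adjusted p = 0.0148). With the block, the call was lost without replicate 1 (edgeR adjusted p = 0.0575) and without replicate 2 (edgeR adjusted p = 0.0758). NLRC5, the transactivator, was the lowest member, with 98 to 215 counts per DMSO library and 155 to 310 per MS275 library. It had 2.19, 5.60, 5.20 and 3.40 CPM with DMSO and 6.08, 7.50, 4.94 and 4.26 CPM with MS275, and was higher in 3 of 4 pairs. Its log2 fold change was 0.47 ± 0.36 without the block and 0.52 ± 0.31 with it (edgeR adjusted p = 0.909 and 0.289). It ran from 0.27 (without DMSO replicate 1) to 0.66 with 1 library left out, and with the block from 0.22 (without replicate 1) to 0.71 with 1 number left out, so a change of that size was not resolved in these libraries.

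**Figure D2:**
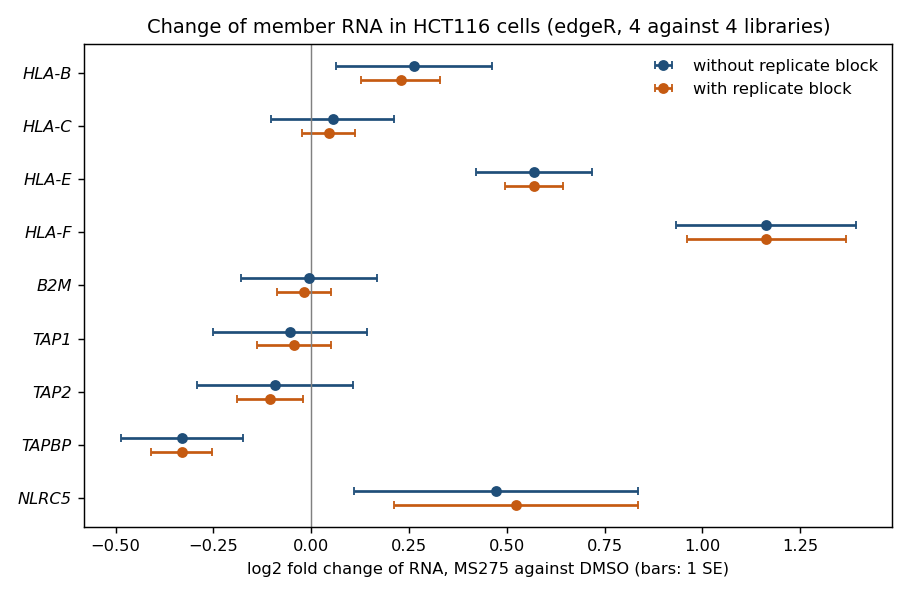
log2 fold change of each member's RNA with MS275 against DMSO, as fitted by edgeR without (blue) and with (orange) the replicate number as a block. Points are estimates and bars 1 SE, from 4 libraries per treatment. HLA-F (1.16) and HLA-E (0.57) lie furthest above 0 relative to their bars and TAPBP (-0.33) furthest below, and the block narrows the bars of every member while it moves no point by more than its bar.

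Levels of different genes were compared per kb of transcript (CPM divided by the length of the GENCODE canonical transcript). In DMSO libraries B2M stood highest at 318 ± 36.5 CPM per kb (SD, n = 4), followed by HLA-C at 176 ± 12.9, HLA-E at 52.2 ± 4.83, HLA-B at 48.7 ± 4.11, TAPBP at 28.5 ± 2.83, TAP1 at 23.2 ± 4.81, TAP2 at 14.7 ± 2.32, HLA-F at 4.46 ± 0.824 and NLRC5 at 0.604 ± 0.235 CPM per kb. Divided by the union of annotated exons instead, HLA-C (108 ± 7.96) stood above B2M (96.0 ± 11.03) and HLA-B (16.2 ± 1.37) further below HLA-E (45.5 ± 4.21 CPM per kb), with the other places kept. Per transcript, the ranges of neighbours in this order overlapped for HLA-E and HLA-B and for TAPBP and TAP1, and for no other neighbours. In CPM, the DMSO mean of B2M was above 96.5% of all genes tested, and those of HLA-F and NLRC5 above 29.8% and 24.8%. With MS275 the order per transcript was the same, HLA-E reached 77.4 ± 7.87 and HLA-F 10.0 ± 1.65 CPM per kb, and the ranges of TAP2 and HLA-F came to overlap.

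The other genes of the pathway were read from 5 lists of 44 genes, 40 of which passed the filter. In these lists edgeR called 0 genes without the block, with PSMB9 and HLA-DRA at an unadjusted p under 0.05. With the block it called 7 higher and 1 lower, that is 8 of 40, beside the 14.4% of all genes. Of 10 genes for peptide supply and loading, 2 were higher and 1 lower. PSMB9, an interferon-inducible subunit of the immunoproteasome, went from a mean of 4.71 to 10.4 CPM, with a log2 fold change of 1.22 ± 0.22 with the block (edgeR adjusted p = 0.0035). CALR, a chaperone of the loading complex, had 0.18 ± 0.049 and PSME2, a proteasome activator subunit, -0.27 ± 0.084 (edgeR adjusted p = 0.0258 and 0.0462, both with the block). TAPBPL was listed at 0 in every library. Of 11 regulators tested, among them IRF1, RFX5, RFXAP, RFXANK, CREB1 and NFYA, 0 were called, with RFXANK the nearest (log2 fold change -0.35 ± 0.11, edgeR adjusted p = 0.0559 with the block).

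Of 5 stress-induced ligands of natural killer cells, MICB and MICA were higher, with log2 fold changes of 0.47 ± 0.097 and 0.44 ± 0.12 (edgeR with the block, adjusted p = 0.00758 and 0.0248). Of 5 class II genes, HLA-DRA, the invariant alpha chain of HLA-DR, went from a mean of 2.03 to 6.46 CPM (log2 fold change 1.80 ± 0.38 with the block, edgeR adjusted p = 0.00799), and the other 4 were not called. Of 9 interferon-stimulated genes tested, IFIT1 and IFI6 were higher (log2 fold change 0.70 ± 0.22 and 0.64 ± 0.16, edgeR with the block, adjusted p = 0.0461 and 0.0168). IFIT3 (-1.14 ± 0.44), IFIT2 (-0.98 ± 0.49), ISG15 (-0.14 ± 0.10) and the other interferon-stimulated genes were not called in either fit, and the median log2 change of the 9 with the block was -0.14. The median log2 change with the block over all 40 genes was 0.11, beside 0.01 over all genes tested.

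Genes most like the members were sought by the smallest root mean square difference of log2 CPM, each about its own mean, from the members' mean profile over 8 libraries. They were ITGB5 (0.054), IL10RB (0.076), IRF1 (0.077), FAM101B (0.080) and H2AFV (0.080). The members themselves lay further from their own mean profile, from 0.14 for HLA-C to 0.51 for HLA-F, so the profile stands for no single member.

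ChIP-seq peaks were then read at the same genes, to ask where both acyl marks stood before and after HDAC inhibition. Of 40266 peaks, 15 lay in or within 2 kb of a member, and 8 of these covered the start of one: HLA-C (chr6:31271401-31272750), HLA-E (chr6:30488701-30491100), HLA-F (chr6:29722801-29724600), B2M (chr15:44710501-44713800), TAP1 (chr6:32851951-32855100), TAP2 (chr6:32837401-32840100), TAPBP (chr6:33312151-33315900) and NLRC5 (chr16:56988301-56991000). HLA-B had no peak (0 of 40266). The TAP1 start peak also holds the start of PSMB9, that of B2M the start of PATL2, that of TAP2 the start of a readthrough gene (ENSG00000250264) that spans it, and a second TAPBP peak (chr6:33296551-33300450) lies over the gene's end and the start of RGL2. Each printed value is a read count on the deposited scale, on which each library was multiplied by 1 factor between 1 and 1.65. Reads in the 8 start peaks numbered from 19 to 315 per ChIP library and from 14 to 55 per input library.

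In the deposited values, limma called both marks lower with MS275 at the starts of HLA-C and TAPBP, H3K18cr alone at TAP1 and H3K18ac alone at TAP2, and neither mark at HLA-E, HLA-F, B2M or NLRC5. In all it called 4 of the 15 member peaks lower and 0 higher for H3K18cr, and 4 lower and 0 higher for H3K18ac, at an adjusted p under 0.05. The background was 23.4% of all 39399 peaks tested called lower for H3K18cr and 16.6% of 39479 for H3K18ac. Gene starts as a whole held a smaller share of their library's reads. The paper calls this drop over starts relative. It also reports more histone crotonylation with MS275 by western blot, and more H3K18cr over promoters by ChIP-qPCR. Scaled reads show how a mark is spread over the genome, so a lower value here does not show a loss of the mark. Of peaks within 1 kb of the start of a tested gene, 61.5% were called lower for H3K18cr and 48.4% for H3K18ac, with median log2 changes of -0.58 and -0.65, beside 3 of 8 member start peaks called for each mark, with medians of -0.47 and -0.60. The median of all peaks was -0.20 for H3K18cr and -0.19 for H3K18ac on the deposited scale, and 0.04 and 0.06 when recovered reads were scaled by TMM in edgeR. On the TMM scale, 2 of 15 member peaks were called lower for H3K18cr (11.5% of all peaks) and 5 of 15 for H3K18ac (16.8% of all peaks). Of the start peaks, 34.4% were called lower for H3K18cr and 49.3% for H3K18ac on that scale, beside 1 of 8 and 4 of 8 member start peaks. Calls over all peaks split into 93 higher and 9228 lower for H3K18cr and 103 and 6549 for H3K18ac on the deposited scale, and into 918 and 4550, and 1899 and 6650, on the TMM scale. Changes below are on the deposited scale, relative to those medians where stated. The share of all peaks whose groups do not overlap was not counted, so non-overlap at a peak is given as a description only.

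**Figure D3:**
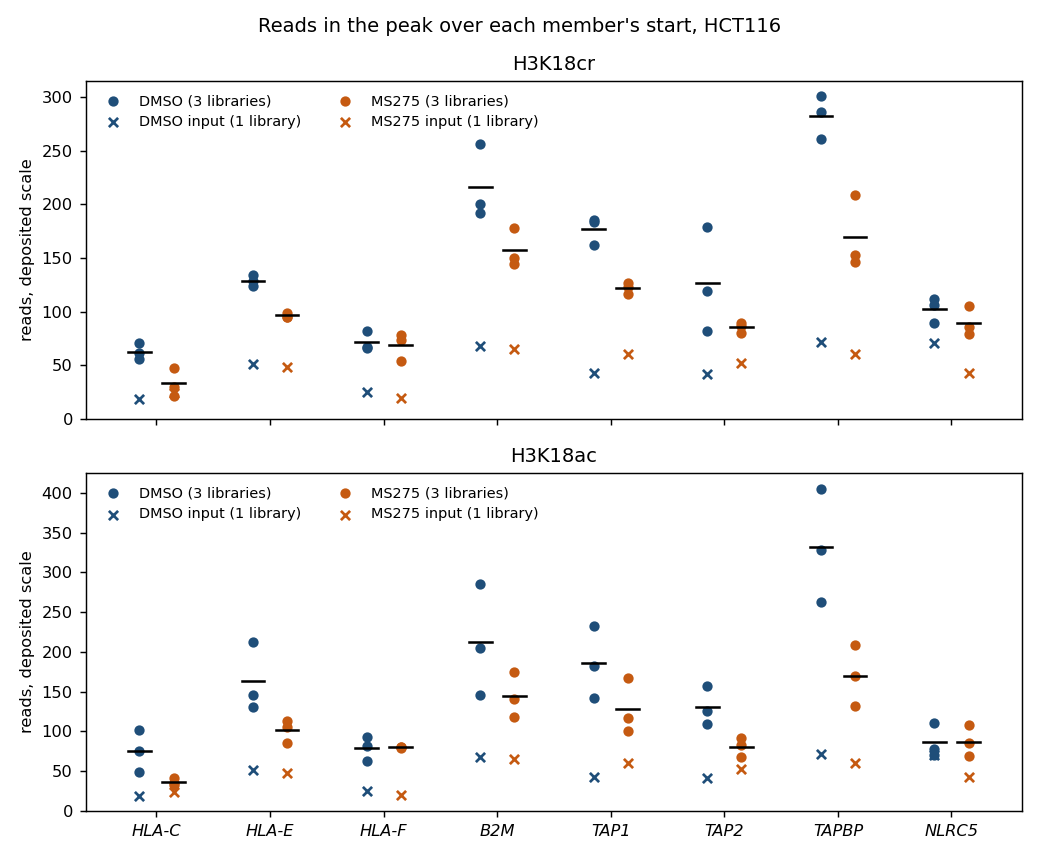
Reads of H3K18cr (top) and H3K18ac (bottom) in the peak over each member's start, on the deposited scale and a linear axis from 0. Dots are the 3 libraries per treatment, black bars their means and crosses the single input library of each treatment. The MS275 dots lie below the DMSO dots at HLA-C, HLA-E and TAPBP for both marks, and mix with them at HLA-F and NLRC5.

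At HLA-C, H3K18cr reads were 61.0, 56.0 and 71.2 in DMSO libraries 1 to 3 and 21.4, 29.7 and 47.7 in MS275 libraries 1 to 3. H3K18ac reads there were 48.7, 75.4 and 102 with DMSO and 41.5, 33.0 and 34.6 with MS275. For both marks the groups did not overlap, and the mean of scaled reads with MS275 was at 52.5% and 48.3% of the DMSO mean. The log2 fold change was -1.0 ± 0.25 for H3K18cr and -0.99 ± 0.25 for H3K18ac (limma adjusted p = 0.00296 and 0.0016), or -0.80 relative to the median of all peaks for each mark. RNA of HLA-C changed by 0.06 on the same log2 scale, while 5.85% of the start peaks of tested genes had a lower H3K18cr change (10.3% on the TMM scale) and 15.3% a lower H3K18ac change. By TMM and edgeR, H3K18cr at HLA-C was no longer called (log2 fold change -0.66 ± 0.25, adjusted p = 0.0603), and the limma call of H3K18ac was lost without DMSO replicate 3 (adjusted p = 0.0547).

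At HLA-E, H3K18cr reads were 124, 134 and 128 with DMSO and 99.0, 94.9 and 95.4 with MS275. The H3K18ac reads were 131, 146 and 212 with DMSO and 113, 106 and 85.9 with MS275. Again no library of one treatment fell within the range of the other, and limma called neither change (-0.42 ± 0.17 and -0.66 ± 0.25, adjusted p = 0.0837 and 0.0507). The H3K18ac change passed by TMM and edgeR (-0.43 ± 0.15, adjusted p = 0.0292), and by limma without DMSO replicate 1 or MS275 replicate 1 (adjusted p = 0.0132 and 0.0403). It did not pass by DESeq2 (adjusted p = 0.0927), with the replicate block (limma adjusted p = 0.271) or in the other 4 leave-outs (limma adjusted p = 0.138 to 0.342). On the TMM scale H3K18cr was at -0.16 ± 0.15 (edgeR adjusted p = 0.496). Of the start peaks of tested genes, 71.4% had a lower H3K18cr change and 48.7% a lower H3K18ac change than HLA-E. Its RNA was higher in 4 of 4 pairs, and the scaled reads of the marks over its start stood at 74.9% and 62.1% of their DMSO mean.

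At HLA-F neither mark was called. Its H3K18cr reads were 66.0, 66.9 and 82.0 with DMSO and 54, 73.6 and 78.6 with MS275, and its H3K18ac reads 63.4, 93.5 and 81.1 with DMSO and 79.2, 80.8 and 80.7 with MS275. The groups overlapped for both marks. The log2 fold change was -0.07 ± 0.20 for H3K18cr and 0.03 ± 0.25 for H3K18ac (limma adjusted p = 0.873 and 0.961), and on the TMM scale 0.18 ± 0.19 and 0.28 ± 0.17, so that the sign of the H3K18cr value depends on the scale. Relative to the median of all peaks these were 0.13 and 0.22. Of the start peaks of tested genes, 93.4% had a lower H3K18cr change and 95.2% a lower H3K18ac change than HLA-F. Its DMSO ratio to input was 1.49 (H3K18cr) and 1.64 (H3K18ac) on the log2 scale.

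At B2M, H3K18cr reads were 256, 201 and 192 with DMSO and 149.6, 144 and 178 with MS275. The groups did not overlap, but the log2 fold change of -0.45 ± 0.17 just missed the threshold (limma adjusted p = 0.0513). Its H3K18ac reads, 146, 205 and 286 with DMSO and 175, 140.2 and 118 with MS275, overlapped (-0.52 ± 0.25, limma adjusted p = 0.163). The H3K18cr change was called without DMSO replicate 3 or MS275 replicate 3 (limma adjusted p = 0.00961 and 0.0293), and the H3K18ac change without DMSO replicate 1 (limma adjusted p = 0.0187). Without DMSO replicate 1 the H3K18cr change was -0.32 (limma adjusted p = 0.303), and without DMSO replicate 3 the H3K18ac change was -0.28 (limma adjusted p = 0.588). On the TMM scale they were -0.22 and -0.28 (edgeR adjusted p = 0.299 and 0.151).

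At the shared start region of TAP1 and PSMB9, H3K18cr reads were 184, 162 and 186 with DMSO and 127, 123 and 116 with MS275. The change of -0.54 ± 0.17 was called (limma adjusted p = 0.0177), and was lost without DMSO replicate 1, MS275 replicate 1 or MS275 replicate 2 (adjusted p = 0.0729, 0.0564 and 0.0639) and on the TMM scale (-0.28 ± 0.15, edgeR adjusted p = 0.197). H3K18ac there was at 141, 182 and 233 reads with DMSO and 167, 101 and 116 with MS275, with overlap (-0.54 ± 0.25, limma adjusted p = 0.14). The H3K18ac change was called when DMSO replicate 1 or MS275 replicate 1 was left out (limma adjusted p = 0.0292 and 0.0408), and was -0.36 without DMSO replicate 3 (limma adjusted p = 0.427) and -0.26 on the TMM scale (edgeR adjusted p = 0.199). With the block, RNA of PSMB9 was called higher and RNA of TAP1 was not.

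At TAP2, H3K18ac reads were 109.8, 125 and 157 with DMSO and 92.2, 82.5 and 68.1 with MS275, without overlap (-0.69 ± 0.25, limma adjusted p = 0.0396). H3K18cr there overlapped, with 119, 179 and 82.0 reads with DMSO and 79.9, 89.2 and 87.0 with MS275 (-0.50 ± 0.21, limma adjusted p = 0.0877). Without DMSO replicate 3 this H3K18cr change was -0.77 (limma adjusted p = 0.00173), without DMSO replicate 2 it was -0.21 (0.65), and on the TMM scale it was -0.31 (edgeR adjusted p = 0.275). The H3K18ac call at TAP2 was lost when DMSO replicate 2, DMSO replicate 3, MS275 replicate 2 or MS275 replicate 3 was left out (limma adjusted p = 0.138, 0.155, 0.164 and 0.302). It was lost with the replicate block too (limma adjusted p = 0.224), and passed on the TMM scale (edgeR adjusted p = 0.0335).

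The start peak of TAPBP, the longest of the 8, held the most reads of both marks in every DMSO library. There H3K18cr reads were 301, 261 and 286 with DMSO and 153, 146 and 209 with MS275, and H3K18ac reads 263, 329 and 405 with DMSO and 209, 132 and 169.8 with MS275. Neither mark's groups overlapped, and the means of scaled reads with MS275 were at 59.9% and 51.2% of the DMSO means. The log2 fold change was -0.76 ± 0.17 for H3K18cr and -0.97 ± 0.25 for H3K18ac (limma adjusted p = 0.00117 and 0.00263), and both calls held on the TMM scale (-0.50 ± 0.14 and -0.68 ± 0.13, edgeR adjusted p = 0.0225 and 5e-05). The H3K18ac call was lost without MS275 replicate 2 (limma adjusted p = 0.134) and with the replicate block (limma adjusted p = 0.105). TAPBP is the member whose RNA, with the block, and both marks at the start, without it, were called lower.

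At the peak over the end of TAPBP and the start of RGL2, the values were higher still. H3K18cr reads went from 431, 424 and 450.1 with DMSO to 214, 176 and 236 with MS275 (-1.07 ± 0.16, limma adjusted p = 3.37e-05). H3K18ac reads went from 333, 462 and 599.9 to 265, 213 and 204 (-1.0 ± 0.25, limma adjusted p = 0.00171). Of the start peaks of tested genes, 3.11% had a lower H3K18cr change and 14.7% a lower H3K18ac change than this one. Without MS275 replicate 2 or 3 the limma call of H3K18ac here was lost (adjusted p = 0.0655 and 0.0648), as it was with the replicate block (limma adjusted p = 0.0985).

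NLRC5 had 5 peaks. Over its start, H3K18cr reads were 112, 106 and 89.7 with DMSO and 78.7, 105 and 85.6 with MS275, and H3K18ac reads 78.1, 70.9 and 111 with DMSO and 108, 69.3 and 84.9 with MS275. Both marks overlapped between treatments, with log2 fold changes of -0.20 ± 0.19 and 0.02 ± 0.25 (limma adjusted p = 0.532 and 0.982), and the first turned to 0.04 ± 0.16 on the TMM scale. The DMSO ratio to input was low, at 0.54 (H3K18cr) and 0.29 (H3K18ac) on the log2 scale. The other 4 NLRC5 peaks lie 9544 to 91444 bases from its start, held 4 to 72 ChIP reads per library and were called for neither mark.

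**Figure D4:**
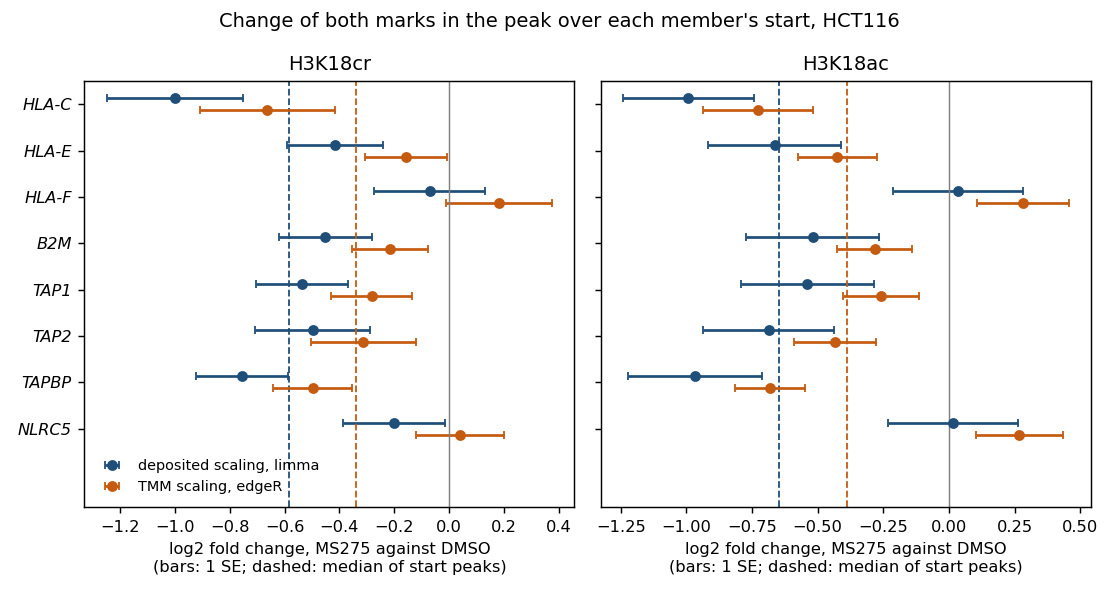
log2 fold change of H3K18cr (left) and H3K18ac (right) with MS275 against DMSO in the peak over each member's start, on the deposited scale with limma (blue) and on the TMM scale with edgeR (orange). Points are estimates, bars 1 SE (3 libraries per treatment), and dashed lines the medians of peaks within 1 kb of the start of a tested gene (-0.58 and -0.65 on the deposited scale, -0.34 and -0.39 by TMM). HLA-C and TAPBP lie left of the dashed lines for both marks, and HLA-F and NLRC5 to the right.

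The marks themselves were compared by the interaction of mark and treatment. Over the 15 member peaks the change in H3K18cr minus that in H3K18ac lay between -0.27 ± 0.34 (an NLRC5 peak, chr16:56999101-57001350) and 0.25 ± 0.30 (HLA-E), and limma called 0 of 15. It called 0 of 40237 peaks in all, with 736 at an unadjusted p under 0.05 (0 of them member peaks, whose lowest unadjusted p by limma was 0.409). SEs ran from 0.29 to 0.51, and after adjustment over 40237 peaks a difference had to lie well beyond its SE to be called. The 0 of 15 therefore does not show that the marks changed alike at these peaks.

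In mouse colon epithelium the pathway was read at rest, with no treatment to compare. The RNA-seq libraries held between 8166406 and 10707901 counts. H2-K1, a classical heavy chain, stood at 833, 806 and 764 CPM in libraries 1 to 3, above 99.4% of the 16691 genes with a count, and H2-D1, the other one, at 663, 625 and 577 CPM. B2m stood at 312, 256 and 290.1 CPM and Tapbp at 255, 218 and 224 CPM. Both transporter genes were far lower, with 45, 37.5 and 38.0 CPM for Tap2 and 28.4, 26.8 and 26.7 CPM for Tap1, and Nlrc5 was the lowest of the 7, with 29, 48 and 28 counts (3.63 ± 0.743 CPM), above 33.0% of the genes with a count.

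Per kb of transcript, H2-K1 led with 495 ± 21.4 CPM per kb (SD, n = 3), followed by B2m at 333 ± 32.8, H2-D1 at 296 ± 20.4, Tapbp at 80.1 ± 6.87, Tap2 at 11.7 ± 1.22, Tap1 at 9.24 ± 0.332 and Nlrc5 at 0.479 ± 0.098 CPM per kb. The ranges of B2m and H2-D1 overlapped, and those of other neighbours did not. With the union of annotated exons as length, B2m (333 ± 32.8) stood above H2-K1 (273 ± 11.8) and H2-D1 (241 ± 16.6 CPM per kb). In both tables the transactivator was the lowest member. Per kb of transcript, the mean of tapasin lay between the classical heavy chains and the transporter, though its range overlapped that of TAP1 in HCT116. By exon union, TAP1 (12.7 ± 1.95) stood above TAPBP (11.8 ± 1.27 CPM per kb) in HCT116 with MS275. The human and mouse tables were normalized apart, so their levels are set side by side only. Immune markers were present in colon, with 6 of 7 at a mean of 1 CPM or more and a sum of 30.7 to 53.9 CPM, against 6153 to 7108 CPM for 7 epithelial markers. Their part in the class I values was not tested, and in bulk RNA fewer cells of a type and less RNA per cell cannot be told apart.

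Colon H3K18cr peaks were found at 6 of the 7 mouse members, 9 of 30338 peaks in all (GRCm38), and H3K4me3 peaks at all 7, 11 of 27035 in all. Values are log2 ratios of ChIP to input with 1 read added, given without a test. Over the H2-K1 start (chr17:33999001-34001100) the H3K18cr ratio was 1.53 and 2.36 in the 2 libraries, above 94.1% of all peaks, whose median was 1.31. Over the H2-D1 start (chr17:35261851-35264250) it was 1.94 and 2.23, above 97.1%. The light chain was lower, with 1.47 and 1.72 at B2m (chr2:122146951-122149350).

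Tap1 had 1.65 and 2.10 over its start (chr17:34186501-34188600), and Tap2 1.94 and 1.97 in a peak 824 bases from its start (chr17:34204351-34205550). They stood above 92.3% and 94.5% of all peaks, although their RNA was far lower than that of Tapbp. Whether these mouse peaks also hold the starts of other genes was not checked. Over the Tapbp start (chr17:33918601-33920700) the ratio was 1.21 and 1.58, above 60.6% of peaks. Nlrc5 had no H3K18cr peak (0 of 30338).

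The heavy chains were also high in H3K4me3, with ratios of 3.00, 3.33 and 4.26 at H2-K1 and 2.45, 3.82 and 3.90 at H2-D1, above 98.4% and 97.1% of all peaks (median 1.65). Only 6 and 8 input reads lie behind these 2 ratios. At Tapbp the ratios were 2.40, 3.07 and 3.57, at Tap1 2.04, 3.04 and 3.60, at Tap2 2.21, 2.46 and 3.21, and at B2m 1.92, 2.81 and 3.05. The Nlrc5 peak inside the deposited gene model (chr8:94476001-94476750) had 0.29, 1.73 and 1.43, above 20.4% of peaks. Another H3K4me3 peak (chr8:94433701-94434900) covers the start that GENCODE M21 gives to Nlrc5, outside the deposited model, with 1.37, 2.24 and 2.97. Library 1 gave the lowest H3K4me3 ratio at each of these peaks, and the 3 ratios at a peak share their input.

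**Figure D5:**
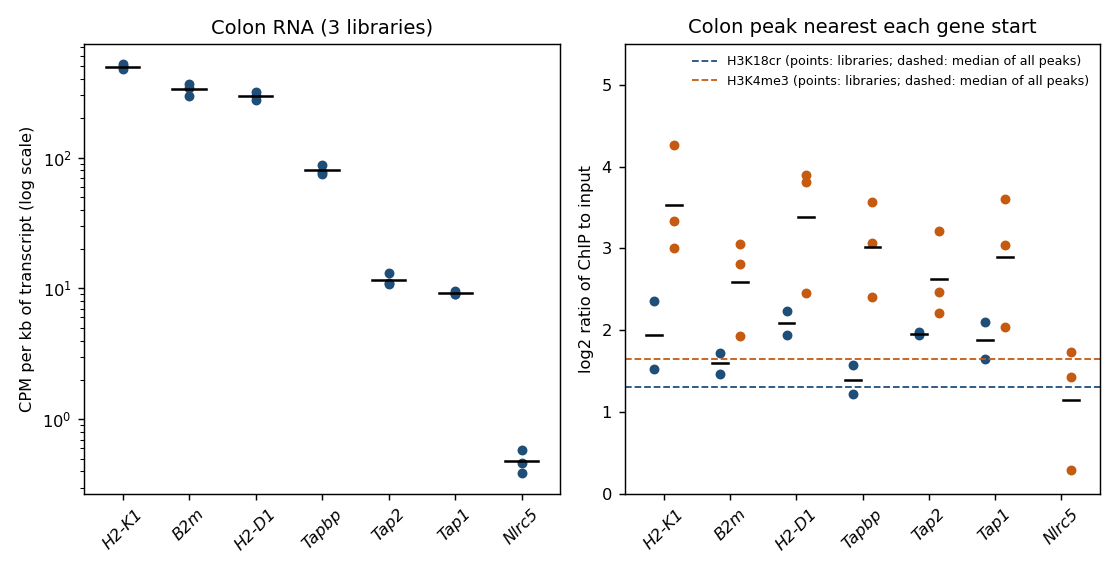
Left, RNA of the 7 mouse members in 3 colon epithelium libraries, in CPM per kb of transcript on a log axis, with the mean as a black bar. Right, log2 ratio of ChIP to input in the peak nearest each gene's start, for H3K18cr (blue, 2 libraries) and H3K4me3 (orange, 3 libraries against 1 input), with means as black bars and the medians of all peaks as dashed lines (1.31 and 1.65). H2-K1 has the highest RNA, its H3K4me3 points mix with those of H2-D1, and Nlrc5 has the lowest RNA and no H3K18cr point.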

How the data were processed

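The RNA-seq tables hold counts of reads per gene, which the authors deposited without normalization after trimming with Trim Galore and counting uniquely mapped reads in SEQMONK (stated beside the mouse genome only); the submitters' processing notes name Trim Galore 0.4.2, TopHat2 2.0.12 and Bowtie2 2.2.5. The deposited HCT116 ChIP-seq table holds log2 values of reads per peak, each library scaled by the authors to the largest one, with 0.9 in place of 0 reads. The colon ChIP-seq tables hold the same signal per peak as the authors deposited it, without a log. Peaks were called by the authors with MACS in SEQMONK, 1 list per table, on GRCh38 or GRCm38. Whole reads were recovered from 100% of the values in every library by dividing by 1 step, at between 1374609 and 5730094 reads in peaks per HCT116 library.

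Libraries were grouped by their labels. RNA was tested with edgeR 4.0.16 (quasi-likelihood, TMM, filterByExpr) and peaks with limma 3.58.1 (spread fitted as a trend of the level, peaks with at least 10 reads in 3 libraries), each over all genes or peaks with Benjamini-Hochberg adjustment at 0.05; DESeq2 1.42.0 was an alternative. The design assumed that the unit decides between limma and edgeR for peaks. The labels number replicates alike in both treatments. In RNA-seq, deviations of same-numbered libraries correlated at 0.226, 0.151, 0.433 and 0.46, all above 0.1, so numbers were taken as pairs (DMSO 2 with MS275 4 and DMSO 4 with MS275 2 also correlated, at 0.239 and 0.219, more than pair 2) and blocked values are given where they change a call; the methods do not say that a number marks a shared culture, so p-values measure the spread between these libraries. CPM used TMM factors. CPM per kb used the GENCODE 44 canonical or longest M21 principal transcript. edgeR and limma were tested on simulated data.

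Named genes were all members, list genes called in either fit (at most 12, largest change first), and the 5 genes most like the members. Some list genes that were not called are named beside them, as examples or with their values. The members and lists were chosen with earlier results of these data known. Alternatives covered scaling, filters, DESeq2, the block, lengths, pseudocounts (1 or 5 reads) and each library left out.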

Additional observations from a re-analysis of the deposited data

How the results depend on the processing

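The RNA result depended on the model. Without the block 1 gene and 0 members were called. The replicate block gave 2151 genes and 3 members, DESeq2 140 genes and 2 members, and no filter on low counts 13 genes. With 1 library left out and no block, 0 to 1 genes were called (0 without DMSO replicate 1, DMSO replicate 2 or MS275 replicate 2) and 0 members. With the block, 968, 994, 2584 and 1037 genes and 2, 2, 3 and 3 members were called without replicate 1, 2, 3 and 4. HLA-C, B2M, TAP1 and TAP2 stayed near 0 and changed sign. With 1 library left out their log2 changes ran from -0.039 to 0.13, -0.11 to 0.10, -0.16 to 0.037 and -0.18 to 0.043, and with the block and 1 number left out HLA-C was at -0.038 (without 3), B2M at 0.039 (without 1) and TAP1 at 0.0082 (without 4). For H3K18cr, 9321 peaks and 4 member peaks became 5468 and 2 by TMM in edgeR, 3384 and 2 by DESeq2 (which gave HLA-C no adjusted p), and 5750 peaks without a trend of the spread (an alternative chosen after seeing the data); leaving out a library gave 5936 (without MS275 replicate 2) to 12615 peaks and 3 to 6 member peaks. For H3K18ac, 6652 peaks and 4 member peaks became 895 and 1 with the replicate block, and the calls at TAP2 and both TAPBP peaks were lost (limma adjusted p = 0.224, 0.0985 and 0.105). Deviations of same-numbered libraries correlated at -0.207, 0.0487 and -0.136 for H3K18ac, and at 0.111, 0.0787 and 0.241 for H3K18cr. A caption of the paper names a paired t-test for both marks over gene starts, so whether the numbers pair these libraries is not settled. With a library left out, H3K18ac gave 1438 to 9324 peaks and 1 to 7 member peaks, with 3054, 3781, 1438 and 1870 peaks without DMSO replicate 2, DMSO replicate 3, MS275 replicate 2 and MS275 replicate 3, and 7 member peaks without DMSO replicate 1 or MS275 replicate 1; the cause was not tested. By TMM, H3K18cr turned positive at HLA-F (0.18), at TAP1 (chr6:32843551-32845650, 0.022), at TAP2 (chr6:32818051-32820900, 0.16) and at NLRC5 (chr16:56988301-56991000, 0.040; chr16:56999101-57001350, 0.19; chr16:57040651-57041550, 0.0082), and H3K18ac at that TAP2 peak (0.15) and the last NLRC5 peak (0.27); this scale moves the median of all peaks from -0.20 to 0.04 and from -0.19 to 0.06. DESeq2 gave 0.054 for H3K18cr at the NLRC5 start and 0.17 for H3K18ac at that TAP2 peak. With a library left out, uncalled H3K18cr changes crossed 0 at that TAP2 peak (-0.28 to 0.086), HLA-F (-0.18 to 0.094) and 2 NLRC5 peaks (chr16:56999101-57001350, -0.31 to 0.096; chr16:57081001-57081750, -0.064 to 0.21), and H3K18ac changes at HLA-F (-0.12 to 0.16), that TAP2 peak (-0.20 to 0.086) and 4 NLRC5 peaks (-0.15 to 0.21, -0.098 to 0.32, -0.72 to 0.43 and -0.24 to 0.38). Without a trend of the spread the calls of H3K18cr at the TAP1 start and H3K18ac at the TAP2 start were lost (limma adjusted p = 0.0586 and 0.0780), as they were by DESeq2 (adjusted p = 0.309 and 0.105). The difference between marks called 0 peaks in its alternatives. Dividing by the union of annotated exons changed the summed level of the members from 666 to 304 CPM per kb in HCT116 and from 1225 to 926 in colon. In H3K18cr the replicate block added the B2M and TAP2 starts (limma adjusted p = 0.0277 and 0.0243), and it changed no other member call than those given here and in the report. NLRC5 held 98 to 310 counts per library, with log2 changes of -0.074 to 1.45 within numbers, and 4 to 112 ChIP reads per peak, and no Nlrc5 or HLA-B peak means only that none was listed.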
